A study of Homo sapiens with 12 samples.

Results

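Senescent fibroblasts depleted of the interleukin-1 receptor were compared with senescent fibroblasts that carried a scramble hairpin. The cells were IMR90, a human lung fibroblast line, here carrying hTERT (the catalytic subunit of telomerase) and RasERT2, an oncogenic Ras that tamoxifen switches on. Of the 12 libraries of poly(A) RNA in the series, 4 belong to the comparison, and 13924 of 27106 genes were tested, those with 10 or more normalized counts in at least 2 of the 12. The 4 are shIL1R at day 10 of Ras induction (labelled IL1R KD, 2 libraries) and shScr at day 10 (labelled WT, with a scramble hairpin RNA, 2 libraries). All 4 come from the same line with the same Ras construct, and all groups received 0.5 µg/ml doxycycline, which induces the hairpins, and then 200 nM tamoxifen or ethanol as its control. Both genotypes were also collected at day 0, as growing cells, and at day 4, when they began to senesce, with 2 libraries in each group. The labels name no Ras isoform, speak of 2 hairpins against the receptor, and do not tell which hairpin or culture gave which shIL1R replicate. The p-values therefore measure the spread between libraries, which may be technical. That spread is pooled over all 6 groups of the series and is not that of the 4 day 10 libraries alone.

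Interleukin-1 alpha and beta bind IL1R1, which pairs with the accessory chain IL1RAP and recruits MYD88 and kinases of the IRAK family. TRAF6 and the kinase MAP3K7 then switch on the IkB kinases and the transcription factor NF-kB. In senescent fibroblasts the loop is known to feed the senescence-associated secretory phenotype (SASP), the mixture of cytokines, chemokines, proteases and growth factors that such cells release, since interleukin-1 is itself a product of NF-kB. The genes are given by role, from the receptor and its ligands to the secreted products, and then the arrest and other programs of the senescent cell.

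The promoters of 4 of the genes that fell most are shown for the letters of an NF-kB site. CXCL5, CXCL1 and CXCL8 had the largest falls among the interleukin-1 ligands, the neutrophil-attracting chemokines and the cytokines with a promoter in the table used (CSF3 is named only), and IL6 was added after its values were seen. Each is 250 bases before to 50 bases after the start of the gene in RefSeq on GRCh38.p14, 5′ to 3′ on the strand of the gene, and capitals mark GGNNTTTCC, searched on both strands. The windows are chr4:73998628-73998927 (minus strand) for CXCL5, chr4:73869143-73869442 (plus strand) for CXCL1, chr4:73740319-73740618 (plus strand) for CXCL8 and chr7:22726950-22727249 (plus strand) for IL6.
CXCL5: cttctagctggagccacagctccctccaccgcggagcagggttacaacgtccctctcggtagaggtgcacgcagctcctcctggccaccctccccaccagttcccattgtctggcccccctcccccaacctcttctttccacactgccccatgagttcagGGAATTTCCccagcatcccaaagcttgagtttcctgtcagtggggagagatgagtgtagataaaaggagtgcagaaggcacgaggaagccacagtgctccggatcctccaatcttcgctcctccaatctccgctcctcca
CXCL1: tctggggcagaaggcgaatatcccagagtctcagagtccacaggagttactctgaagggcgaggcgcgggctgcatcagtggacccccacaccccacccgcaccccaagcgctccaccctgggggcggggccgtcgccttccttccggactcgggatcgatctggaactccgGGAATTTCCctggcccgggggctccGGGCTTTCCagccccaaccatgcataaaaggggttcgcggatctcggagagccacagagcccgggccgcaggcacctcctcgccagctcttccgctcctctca
CXCL8: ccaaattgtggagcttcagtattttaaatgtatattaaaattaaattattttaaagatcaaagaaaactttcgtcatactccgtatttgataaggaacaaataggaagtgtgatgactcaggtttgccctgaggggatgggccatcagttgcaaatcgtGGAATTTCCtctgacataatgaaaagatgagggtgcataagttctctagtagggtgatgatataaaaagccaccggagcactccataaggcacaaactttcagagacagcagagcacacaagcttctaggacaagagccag
IL6: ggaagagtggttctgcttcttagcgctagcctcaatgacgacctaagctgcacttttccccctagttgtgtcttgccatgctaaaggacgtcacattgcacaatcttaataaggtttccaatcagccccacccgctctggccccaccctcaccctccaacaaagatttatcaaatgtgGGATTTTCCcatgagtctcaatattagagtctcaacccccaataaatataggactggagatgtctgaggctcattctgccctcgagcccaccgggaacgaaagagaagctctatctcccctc
The match lies 90 to 82 bases before the start in CXCL5, 91 to 83 in CXCL8 and 72 to 64 in IL6, and CXCL1 has a match at 78 to 70 and another at 53 to 45. These letters occur in 2198 of 35116 promoters of this length (6.26%), in 50 of 525 promoters of the genes lower in shIL1R cells (9.52%) and in 23 of 478 of the genes higher (4.81%). Among the promoters of all genes tested, 738 of 11020 (6.7%) had a match. Of 18 genes of those groups that were lower, 16 had a promoter and 7 of these (43.8%) a match. The 7 were IL6 and CXCL5, CXCL1, CXCL8, CXCL3, CXCL2 and CXCL6. The CXC genes lie side by side on chromosome 4, so their promoters may not count as separate cases. A match is a description of letters and not a binding site, and the files hold no binding data.

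At day 10, 675 genes were lower and 608 higher in shIL1R than in shScr cells, which is 4.85% and 4.37% of the 13924 genes tested. Counts of called genes in the lists below are to be read beside these shares. A list near them is not set apart from all genes. Levels are deposited normalized counts (reads divided by a library factor), and a signed value in parentheses is the log2 fold change of the value plus 1, shIL1R over shScr, ± its SE. A gene is said to fall or rise where limma's Benjamini-Hochberg adjusted p over all genes tested was below 0.05. In bulk RNA, fewer cells of a type and less RNA per cell cannot be told apart. The values of the groups did not overlap for 3476 genes lower (25%) and 3343 higher (24%). The median log2 fold change was -0.67 over the lower genes and 0.74 over the higher genes, and the falls reached further at the extremes. Of the lower genes 232 were past 2-fold, 96 past 4-fold and 48 past 8-fold, and of the higher genes 161, 16 and 1. The gene past 8-fold was AQP1, a water channel, with 28.8 and 42.9 normalized counts in shIL1R cells, against 3.54 and 1.01 in shScr cells, chosen after its values were seen. Its rise (3.58 ± 0.71, adjusted p = 0.0144) is the largest upward change of any gene that passed, a size that depends on the added 1 because the shScr values are near 0, and CXCL5 has the largest fall. The 4 libraries held 24150214 to 29673299 recovered gene reads. Left out in turn, replicates 1 and 2 of shIL1R day 10 gave 1895 and 344 genes lower and 1626 and 277 higher, and replicates 1 and 2 of shScr day 10 gave 567 and 64 lower and 497 and 51 higher. Single calls depend on which libraries are in the fit. A fit of the 4 day 10 libraries alone, with their own spread and fewer residual degrees of freedom, called 64 lower and 9 higher. A fit with a term for replicate number within each genotype called 165 lower and 107 higher. AQP1 did not pass without shScr replicate 2 of day 10 and without shIL1R replicate 2 of day 10 (adjusted p from 0.0577 to 0.145, and from 0.00119 to 0.145 over all alternatives). Of the 208 genes named here and tested 152 passed, and 27 of these passed in every alternative that gave a value: CCL20, CHDH, CSF3, CXCL1, CXCL5, EHF, HBEGF, ID1, IL6, IRAK3, LIF, LMO7, LRRC15, LYPD1, MMP10, MMP3, NRG1, PTN, PXT1, SAA1, SAA2, SERPINB4, SLC11A2, SOD2, TFRC, TNFSF15 and ZC3H12A.

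**Figure D1:**
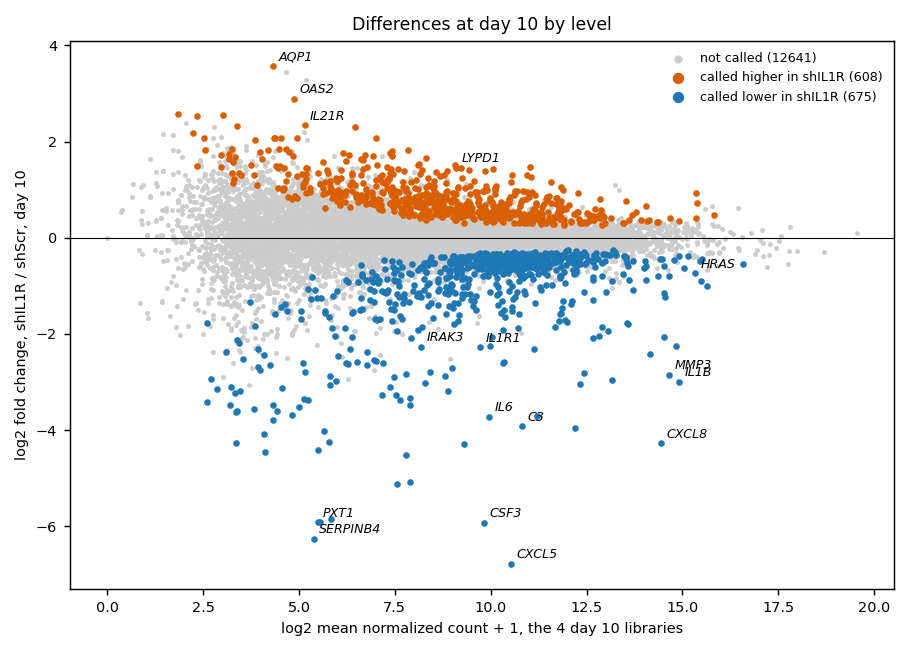
Log2 fold change of shIL1R against shScr cells at day 10 (vertical axis) against the log2 mean normalized count plus 1 of the 4 day 10 libraries (horizontal axis), with a point for each of the 13924 genes tested. The 608 genes called higher (orange) reach 3.58 and the 675 called lower (blue) reach -6.77, at CXCL5.

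The target of the hairpin was lower. IL1R1, the signalling receptor for interleukin-1, had 295 and 279.9 normalized counts in shIL1R cells, against 1580.1 and 1239.6 in shScr cells. Both shIL1R libraries lay below both shScr libraries, at 20.4% of the shScr mean (-2.28 ± 0.42, adjusted p = 0.0102). No neighbouring receptor gene of the cluster passed. IL1RL1, the receptor of interleukin-33, had 64.7 and 91.4 normalized counts in shIL1R cells, against 60.2 and 46.6 in shScr cells (adjusted p = 0.217). IL1RL2, which binds the interleukin-36 family, had 38.4 and 16.9 in shIL1R cells, against 20.1 and 14.2 in shScr cells (adjusted p = 0.384), and IL18R1, the interleukin-18 receptor, 40.8 and 83.5 in shIL1R cells, against 37.8 and 17.2 in shScr cells (adjusted p = 0.106). HRAS, a Ras isoform, had 37518 and 25280.1 normalized counts in shIL1R cells, against 51790.5 and 50789 in shScr cells (-0.74 ± 0.17, adjusted p = 0.0257). All shIL1R values of HRAS lay below the shScr values. Gene counts do not separate a Ras transgene from the endogenous gene, and the part of the HRAS level in the results that follow was not tested. IL1R1 and HRAS did not pass without shScr replicate 2 of day 10 (adjusted p from 0.0696 to 0.157, and from 2.91e-04 to 0.193 over all alternatives). HRAS missed the threshold without shScr replicate 1 of day 10 and without shIL1R replicate 2 of day 10 (adjusted p from 0.0787 to 0.1, and from 8.02e-04 to 0.193 over all alternatives). HRAS had a log2 fold change of -0.45 without shIL1R replicate 2 of day 10.

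Both interleukin-1 cytokines fell with the receptor. Of 10 interleukin-1 family ligands and antagonists 6 were tested and 4 fell, with a median log2 fold change of -2.85 over the 6, against -0.0034 over all genes. IL1B, the secreted form, had 12785 and 3527 normalized counts in shIL1R cells, against 49464 and 57823 in shScr cells (-2.99 ± 0.53, adjusted p = 0.00843). IL1A, the form that acts from the cell surface and from dying cells, had 2675 and 660.3 normalized counts in shIL1R cells, against 8779 and 9814 in shScr cells (-2.80 ± 0.54, adjusted p = 0.0125). In each case replicate 1 of shIL1R kept more than replicate 2 did, and both lay well under the shScr libraries. IL33, a nuclear alarmin, had 27.6 and 19.2 normalized counts in shIL1R cells, against 103.8 and 91.1 in shScr cells (-2.03 ± 0.40, adjusted p = 0.0137). IL36RN, which blocks the interleukin-36 receptor, had 13.2 and 1.13 normalized counts in shIL1R cells, against 66.1 and 115 in shScr cells (-4.01 ± 0.83, adjusted p = 0.0167). The antagonist IL1RN, which occupies IL1R1 without signalling, had 40.8 and 9.03 normalized counts in shIL1R cells, against 103 and 124 in shScr cells, groups that do not overlap. IL1RN did not pass by limma (-2.47 ± 0.74, adjusted p = 0.0611), though edgeR (adjusted p = 0.0224) and DESeq2 (adjusted p = 0.0166) called it lower. The ligand IL36B, with 2.40 and 0 in shIL1R cells, against 10.6 and 15.2 in shScr cells, did not pass by limma either (adjusted p = 0.0607). IL1B, IL1A, IL33 and IL36RN did not pass without shScr replicate 2 of day 10 (adjusted p from 0.0898 to 0.159, and from 1.36e-04 to 0.159 over all alternatives). IL33 missed the threshold without shScr replicate 1 of day 10 (adjusted p = 0.056, and from 0.00106 to 0.103 over all alternatives). IL33 and IL36RN did not pass without shIL1R replicate 2 of day 10 (adjusted p from 0.0657 to 0.0682, and from 4.14e-04 to 0.159 over all alternatives). IL1A had a log2 fold change of -1.79, and IL36RN of -2.64, without shIL1R replicate 2 of day 10. With replicate 1 or 2 of shIL1R day 10 left out, 6 and 2 genes were lower in turn, and with replicate 1 or 2 of shScr day 10 left out, 3 and 0.

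Most genes of the receptor complex did not pass. Of 18 receptor and proximal signalling genes tested, 3 fell (IL1R1, IRAK2 and IRAK3) and 1 rose (IRAK4), with a median of -0.047. These are 16.7% and 5.56%, against 4.85% and 4.37% of all genes tested. The lower share includes IL1R1, the target of the hairpin itself, and the higher share is 1 gene and near that of all genes. IRAK3, a kinase-dead brake on the pathway that the pathway itself induces, had 112 and 88.0 normalized counts in shIL1R cells, against 496 and 462 in shScr cells (-2.26 ± 0.15, adjusted p = 3.76e-05). The shIL1R libraries lie close together, with a mean at 20.8% of the shScr mean. IRAK2, an active partner in the receptor complex, had 1663 and 969.5 normalized counts in shIL1R cells, against 3305 and 3188 in shScr cells (-1.35 ± 0.31, adjusted p = 0.0255). IRAK4, the kinase that starts the cascade, was higher, with 367 and 406 normalized counts in shIL1R cells, against 283 and 245 in shScr cells (0.55 ± 0.11, adjusted p = 0.0152). The accessory chain IL1RAP (972 and 717 in shIL1R cells, against 869.7 and 904 in shScr cells, -0.087 ± 0.15, adjusted p = 0.754), the adaptor MYD88 (0.093 ± 0.17, adjusted p = 0.766), the kinase IRAK1 (0.17 ± 0.079, adjusted p = 0.181), the ubiquitin ligase TRAF6 (0.26 ± 0.11, adjusted p = 0.161) and MAP3K7 (-0.21 ± 0.077, adjusted p = 0.107) did not pass, and no call was made for the MAP3K7 partners TAB1 (0.17), TAB2 (-0.20) and TAB3 (-0.50), for the ligases PELI1 (-0.60) and PELI2 (-0.0066), or for the inhibitors TOLLIP (-0.22) and SIGIRR (0.65). These last values are log2 fold changes with adjusted p from 0.116 to 0.989. IRAK2 and IRAK4 did not pass without shScr replicate 2 of day 10 and without shIL1R replicate 2 of day 10 (adjusted p from 0.0556 to 0.158, and from 0.00315 to 0.222 over all alternatives). IRAK2 missed the threshold without shScr replicate 1 of day 10 (adjusted p = 0.0801, and from 0.00351 to 0.158 over all alternatives). The count of lower genes was 6 and 2 without shIL1R replicate 1 and 2 of day 10 in turn, and 2 and 1 without shScr replicate 1 and 2 of day 10 in turn.

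Every neutrophil-attracting CXC chemokine tested fell. The 7 genes had a median log2 fold change of -3.37. CXCL8 (interleukin-8) had 5272 and 884 normalized counts in shIL1R cells, against 38965 and 44346 in shScr cells (-4.27 ± 0.66, adjusted p = 0.00512). CXCL5 had 39.6 and 14.7 normalized counts in shIL1R cells, against 1972 and 3864 in shScr cells (-6.77 ± 0.43, adjusted p = 3.76e-05). CXCL1 had 125 and 28.2 normalized counts in shIL1R cells, against 1266 and 1097 in shScr cells (-4.28 ± 0.53, adjusted p = 0.00222). In these genes each shIL1R library lay below each shScr library, and replicate 2 was the lower of the shIL1R libraries. CXCL3 stood at 61.2 and 18.1 in shIL1R cells, against 319.8 and 396 in shScr cells (-3.37 ± 0.47, adjusted p = 0.00344). CXCL2 stood at 114 and 7.90 in shIL1R cells, against 266 and 353 in shScr cells (-3.26 ± 0.89, adjusted p = 0.0441). CXCL6 was at 6.0 and 2.26 in shIL1R cells, against 43.7 and 37.5 in shScr cells (-3.12 ± 0.53, adjusted p = 0.00737) and PPBP, better known from platelets, at 2.40 and 0 in shIL1R cells, against 11.8 and 22.3 in shScr cells (-3.23 ± 0.75, adjusted p = 0.0255). CXCL1, CXCL2 and CXCL3 are close in sequence, so how reads were shared among them is uncertain. All 7 lie side by side on chromosome 4 in the RefSeq annotation, in the order CXCL8, CXCL6, CXCL1, PPBP, CXCL5, CXCL3 and CXCL2 with the platelet genes PF4V1 and PF4 between them. MTHFD2L, a mitochondrial folate enzyme next to CXCL2, did not pass (-0.44, adjusted p = 0.411). CXCL8, CXCL3, CXCL2, CXCL6 and PPBP did not pass without shScr replicate 2 of day 10 (adjusted p from 0.0508 to 0.257, and from 2.01e-10 to 0.257 over all alternatives). CXCL2 missed the threshold without shScr replicate 1 of day 10, without a day 0 or day 4 library and in DESeq2 (adjusted p from 0.0547 to 0.108, and from 9.95e-05 to 0.257 over all alternatives). CXCL2 and PPBP did not pass without shIL1R replicate 2 of day 10 (adjusted p = 0.123, and from 9.95e-05 to 0.257 over all alternatives). CXCL2 had a log2 fold change of -1.42 without shIL1R replicate 2 of day 10. CXCL2 had a log2 fold change of -5.11 without shIL1R replicate 1 of day 10. Leaving out shIL1R replicate 1 or 2 of day 10 gave 7 and 5 genes lower, and leaving out shScr replicate 1 or 2 gave 6 and 2.

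**Figure D2:**
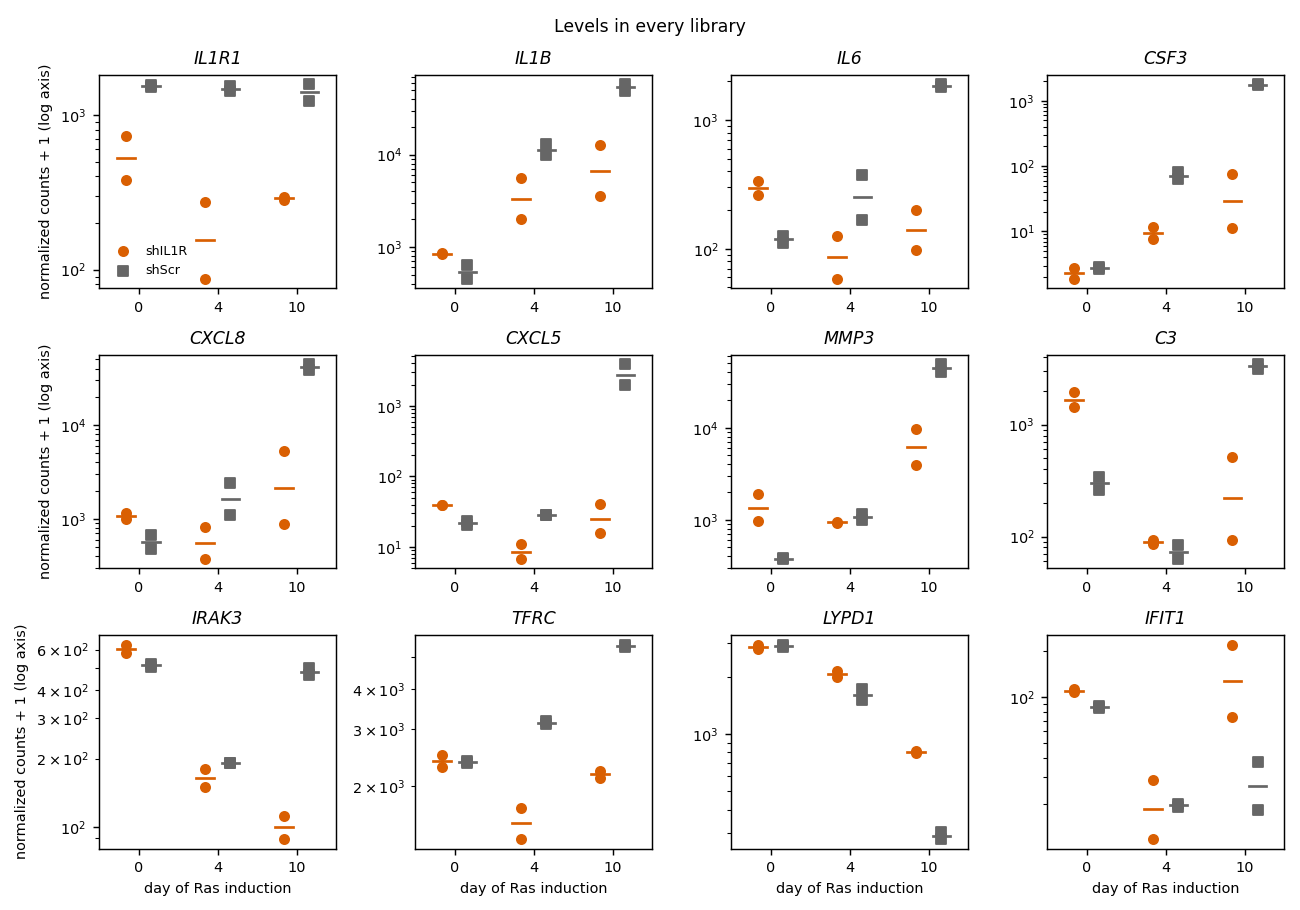
Levels of 12 genes as normalized counts plus 1 on log axes, by day of Ras induction (0, 4 and 10). Each point is a library (orange circles shIL1R, grey squares shScr), and bars mark group geometric means. At day 10 the shIL1R libraries lie below the shScr libraries for IL1R1, IL1B, IL6, CSF3, CXCL8, CXCL5, MMP3, C3, IRAK3 and TFRC, and above them for LYPD1 and IFIT1.

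Other chemokines were mixed. Of 17 listed, 7 were tested and 3 fell, with a median of -0.39. CCL20, which draws cells bearing CCR6, had 25.2 and 5.64 normalized counts in shIL1R cells, against 345 and 569 in shScr cells (-5.07 ± 0.63, adjusted p = 0.00222). CCL3, a macrophage inflammatory protein with near-identical copies that make its count uncertain, had 1962 and 132 normalized counts in shIL1R cells, against 5949 and 10614 in shScr cells (-3.96 ± 1.06, adjusted p = 0.0427). CXCL10, an interferon-inducible ligand of CXCR3, had 56.4 and 19.2 normalized counts in shIL1R cells, against 209 and 147 in shScr cells (-2.37 ± 0.53, adjusted p = 0.0215). The monocyte chemokine CCL2 had 61.2 and 324 normalized counts in shIL1R cells, against 82.6 and 65.8 in shScr cells (adjusted p = 0.354). Only replicate 2 of shIL1R stood apart there, above the other 3 libraries. CCL26 (1.05 ± 0.56), CXCL12 (1.14 ± 0.83) and CXCL16 (-0.39 ± 0.49) did not pass (adjusted p from 0.255 to 0.652). CCL3 and CXCL10 did not pass without shScr replicate 2 of day 10, without shScr replicate 1 of day 10 and without shIL1R replicate 2 of day 10 (adjusted p from 0.0837 to 0.273, and from 3.87e-04 to 0.273 over all alternatives). CCL3 missed the threshold without a day 0 or day 4 library and in DESeq2 (adjusted p from 0.0501 to 0.0969, and from 7.42e-04 to 0.273 over all alternatives). CCL3 had a log2 fold change of -2.02 without shIL1R replicate 2 of day 10. With replicate 1 or 2 of shIL1R day 10 left out, 3 and 1 genes were lower in turn, and with replicate 1 or 2 of shScr day 10 left out, 1 and 1.

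Of 12 cytokines and colony-stimulating factors tested 7 fell and 1 rose, with a median log2 fold change of -1.96. IL6, the classic SASP cytokine, had 199 and 97.1 normalized counts in shIL1R cells, against 1899.8 and 1801 in shScr cells (-3.72 ± 0.43, adjusted p = 0.00139). CSF3, which drives granulocyte production, had 74.3 and 10.2 normalized counts in shIL1R cells, against 1790.1 and 1735 in shScr cells (-5.93 ± 0.66, adjusted p = 0.0012). CSF2, which acts on granulocytes and macrophages, had 2679 and 413 normalized counts in shIL1R cells, against 8296 and 9083 in shScr cells (-3.04 ± 0.70, adjusted p = 0.0246). The shIL1R libraries of CSF2 were further apart from each other than the shScr ones, yet neither reached the shScr level. LIF and IL11, which signal through the same gp130 chain as IL6, fell less: LIF had 2908 and 2733 normalized counts in shIL1R cells, against 10844 and 12566 in shScr cells (-2.05 ± 0.17, adjusted p = 1.35e-04) and IL11 5573 and 2457 in shIL1R cells, against 8899.8 and 9322 in shScr cells (-1.30 ± 0.31, adjusted p = 0.0265). TNFSF15, a member of the tumour necrosis factor family, had 3191 and 1333 normalized counts in shIL1R cells, against 14229 and 17969.7 in shScr cells (-2.95 ± 0.32, adjusted p = 0.00106). IL32 had 841 and 322 normalized counts in shIL1R cells, against 2037 and 1876 in shScr cells (-1.91 ± 0.38, adjusted p = 0.0143). IL15, which sustains natural killer and memory T cells, was the gene that rose, with 63.5 and 83.5 normalized counts in shIL1R cells, against 43.7 and 30.4 in shScr cells (0.98 ± 0.24, adjusted p = 0.0293). CSF1 (-0.13 ± 0.15, adjusted p = 0.626), CLCF1 (-0.16 ± 0.21, adjusted p = 0.653) and TSLP (0.33 ± 0.25, adjusted p = 0.417) did not pass, nor did IL24, with 145 and 41.8 in shIL1R cells, against 352 and 284 in shScr cells (-2.0 ± 0.69, adjusted p = 0.0946). CSF2, IL11, IL32 and IL15 did not pass without shScr replicate 2 of day 10 (adjusted p from 0.105 to 0.236, and from 1.84e-04 to 0.236 over all alternatives). CSF2, IL11 and IL32 missed the threshold without shScr replicate 1 of day 10 (adjusted p from 0.0524 to 0.0727, and from 1.84e-04 to 0.177 over all alternatives). CSF2, IL11 and IL15 did not pass without shIL1R replicate 2 of day 10 (adjusted p from 0.0732 to 0.12, and from 1.84e-04 to 0.236 over all alternatives). CSF2 had a log2 fold change of -1.70, and IL11 of -0.71 and IL32 of -1.22, without shIL1R replicate 2 of day 10. The count of lower genes was 8 and 5 without shIL1R replicate 1 and 2 of day 10 in turn, and 4 and 4 without shScr replicate 1 and 2 of day 10 in turn.

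Among 21 NF-kB subunits and feedback genes 11 fell and 1 rose, with a median of -0.69. ZC3H12A (regnase-1), a nuclease that destroys the mRNA of IL6 and other cytokines, had 424 and 279 normalized counts in shIL1R cells, against 1885 and 1435 in shScr cells (-2.25 ± 0.21, adjusted p = 5.20e-04). BIRC3, a ubiquitin ligase of the tumour necrosis factor receptor complex, had 739 and 163 normalized counts in shIL1R cells, against 2026 and 2179 in shScr cells (-2.60 ± 0.54, adjusted p = 0.0171). NFKBIZ, a nuclear IkB that helps transcribe IL6, had 917 and 489 normalized counts in shIL1R cells, against 1717 and 2104 in shScr cells (-1.5 ± 0.28, adjusted p = 0.011). Each of these had non-overlapping groups. TRAF1 (-1.15 ± 0.20, adjusted p = 0.00744), the deubiquitinase CYLD (-0.74 ± 0.14, adjusted p = 0.0128), TRAF3 (-0.56 ± 0.079, adjusted p = 0.00339) and TNIP1 (-0.87 ± 0.18, adjusted p = 0.0157) fell by smaller amounts, and TNIP3 had 1.20 and 0 normalized counts in shIL1R cells, against 13.0 and 11.1 in shScr cells (adjusted p = 0.00592). Of the subunits REL (-0.93 ± 0.26, adjusted p = 0.0468), NFKB2 (-0.59 ± 0.14, adjusted p = 0.031) and NFKB1 (-0.47 ± 0.13, adjusted p = 0.0419) fell, while RELA, the main activating subunit, had 4637 and 3901 normalized counts in shIL1R cells, against 4449 and 4336 in shScr cells (-0.047 ± 0.086, adjusted p = 0.767). The kinase IKBKB was slightly higher (0.31 ± 0.086, adjusted p = 0.0478). TNFAIP3 (A20), the best known feedback inhibitor, had 1385 and 334 normalized counts in shIL1R cells, against 2437 and 2968 in shScr cells and did not pass (-1.98 ± 0.68, adjusted p = 0.0923), with replicate 2 of shIL1R far under replicate 1. NFKBIA (-0.58), NFKBIB (-0.23), NFKBIE (-0.71), RELB (-0.69), BCL3 (0.35), IKBKE (-0.28) and TNIP2 (-0.12) did not pass either (log2 fold changes, adjusted p from 0.0876 to 0.425). BIRC3, NFKBIZ, CYLD, TNIP1, TNIP3, REL, NFKB2, NFKB1 and IKBKB did not pass without shScr replicate 2 of day 10 (adjusted p from 0.0575 to 0.291, and from 7.87e-06 to 0.31 over all alternatives). BIRC3, TNIP1, REL, NFKB2, NFKB1 and IKBKB missed the threshold without shScr replicate 1 of day 10 (adjusted p from 0.0501 to 0.117, and from 6.21e-05 to 0.31 over all alternatives). TNIP1, REL, NFKB2, NFKB1 and IKBKB did not pass without shIL1R replicate 2 of day 10 (adjusted p from 0.0594 to 0.199, and from 1.71e-04 to 0.31 over all alternatives). REL, NFKB2, NFKB1 and IKBKB missed the threshold without a day 0 or day 4 library (adjusted p from 0.0502 to 0.0812, and from 0.00383 to 0.31 over all alternatives). REL did not pass in edgeR (adjusted p = 0.0544, and from 0.00633 to 0.232 over all alternatives). BIRC3 had a log2 fold change of -1.51, and CYLD of -0.48 and REL of -0.60, without shIL1R replicate 2 of day 10. Leaving out shIL1R replicate 1 or 2 of day 10 gave 16 and 7 genes lower, and leaving out shScr replicate 1 or 2 gave 6 and 3.

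Of 15 other known NF-kB targets tested 7 fell, with a median of -1.69, and of 10 complement and acute phase genes 3 fell and 1 rose, with a median of 0.032. ICAM1, the adhesion molecule that holds leukocytes, had 10411 and 2921 normalized counts in shIL1R cells, against 26921 and 32518 in shScr cells (-2.42 ± 0.47, adjusted p = 0.013). SOD2, the mitochondrial superoxide dismutase, had 3705 and 2931 normalized counts in shIL1R cells, against 11316 and 12729.9 in shScr cells (-1.86 ± 0.13, adjusted p = 3.76e-05). PDPN (podoplanin, -3.06 ± 0.52, adjusted p = 0.00714), IL4I1, a secreted amino acid oxidase (-2.97 ± 0.81, adjusted p = 0.045), and G0S2, an inhibitor of lipolysis (-2.07 ± 0.54, adjusted p = 0.0384), fell too. Complement C3 had 516 and 92.6 normalized counts in shIL1R cells, against 3168 and 3454 in shScr cells (-3.91 ± 0.56, adjusted p = 0.00363). The acute phase genes SAA1 and SAA2 were at or near 0 in shIL1R cells. SAA1 had 2.40 and 0 normalized counts in shIL1R cells, against 73.2 and 149 in shScr cells (adjusted p = 0.00285) and SAA2 1.20 and 0 in shIL1R cells, against 69.6 and 111 in shScr cells (adjusted p = 0.00125). SAA1 and SAA2 are near copies of each other, so their split is uncertain. C1R, a complement protease, rose (1851 and 2571 normalized counts in shIL1R cells, against 1639 and 1042 in shScr cells, 0.74 ± 0.20, adjusted p = 0.0408). No C/EBP factor passed by limma: CEBPB, which drives IL6 and CXCL8 in senescent cells, had 5011 and 2547 normalized counts in shIL1R cells, against 4855 and 5089.9 in shScr cells (-0.48 ± 0.27, adjusted p = 0.288) and CEBPD 248 and 403 in shIL1R cells, against 420.1 and 408 in shScr cells (-0.39 ± 0.23, adjusted p = 0.313). Of the 4 C/EBP genes tested 1 was lower at an unadjusted p below 0.05, where 14.3% of all genes were lower and 13.1% higher, and edgeR and DESeq2 called 0. ICAM1, PDPN, IL4I1, G0S2, C3 and C1R did not pass without shScr replicate 2 of day 10 (adjusted p from 0.0503 to 0.325, and from 2.17e-06 to 0.325 over all alternatives). IL4I1 and G0S2 missed the threshold without shScr replicate 1 of day 10 (adjusted p from 0.083 to 0.161, and from 3.41e-05 to 0.242 over all alternatives). IL4I1, G0S2 and C1R did not pass without shIL1R replicate 2 of day 10 and without a day 0 or day 4 library (adjusted p from 0.0501 to 0.174, and from 3.41e-05 to 0.325 over all alternatives). G0S2 missed the threshold in edgeR and in DESeq2 (adjusted p from 0.054 to 0.0783, and from 3.41e-05 to 0.242 over all alternatives). C1R had a log2 fold change of 0.41 without shScr replicate 2 of day 10. ICAM1 had a log2 fold change of -1.51, and G0S2 of -0.92, without shIL1R replicate 2 of day 10. G0S2 had a log2 fold change of -3.22 without shIL1R replicate 1 of day 10.

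Among secreted proteases MMP3 and MMP10 fell. Of 17 matrix metalloproteinases and inhibitors tested 4 fell and 3 rose, with a median of -0.26. MMP3 (stromelysin 1) had 9779 and 3886 normalized counts in shIL1R cells, against 40035 and 48905 in shScr cells (-2.84 ± 0.37, adjusted p = 0.00285). MMP10 (stromelysin 2) had 55.2 and 50.8 normalized counts in shIL1R cells, against 333 and 447 in shScr cells (-2.84 ± 0.32, adjusted p = 0.0012). MMP9, a gelatinase, had 3.60 and 2.26 normalized counts in shIL1R cells, against 33.0 and 70.9 in shScr cells (-3.68 ± 0.61, adjusted p = 0.00674). MMP7 was at 0 in both shIL1R libraries, against 16.5 and 20.3 in shScr cells (adjusted p = 0.00894), at least 5.27-fold lower with 3 reads per library taken as the floor. MMP1, the interstitial collagenase, had 191904 and 168806 normalized counts in shIL1R cells, against 259540.2 and 266756 in shScr cells and did not pass (-0.55 ± 0.18, adjusted p = 0.0742), though its groups did not overlap. MMP11 rose (191 and 278 normalized counts in shIL1R cells, against 142 and 90.1 in shScr cells, 1.02 ± 0.26, adjusted p = 0.0354). MMP9, MMP7 and MMP11 did not pass without shScr replicate 2 of day 10 (adjusted p from 0.0942 to 0.291, and from 0.00152 to 0.291 over all alternatives). MMP11 missed the threshold without shIL1R replicate 2 of day 10 and without a day 0 or day 4 library (adjusted p from 0.0557 to 0.152, and from 0.00695 to 0.291 over all alternatives). With replicate 1 or 2 of shIL1R day 10 left out, 7 and 4 genes were lower in turn, and with replicate 1 or 2 of shScr day 10 left out, 4 and 2.

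Of 11 plasminogen activator and serine protease inhibitor genes tested 3 fell, with a median of -0.26. SERPINB2 (plasminogen activator inhibitor 2) had 16518 and 5866 normalized counts in shIL1R cells, against 41400.3 and 53186 in shScr cells (-2.25 ± 0.38, adjusted p = 0.00727). SERPINB7 had 2354 and 1319 normalized counts in shIL1R cells, against 4753 and 5875 in shScr cells (-1.58 ± 0.22, adjusted p = 0.00339). PI3 (elafin), an elastase inhibitor, had 31.2 and 2.26 normalized counts in shIL1R cells, against 317 and 398 in shScr cells (-5.12 ± 0.98, adjusted p = 0.0123). Some of the genes with the deepest falls are best known from the skin barrier, a grouping made after their values were seen and not tested. SERPINB4, with a near copy in SERPINB3, was at 0 in both shIL1R libraries, against 49.6 and 114 in shScr cells (adjusted p = 7.73e-04), at least 23.5-fold lower. LCE3D and LCE2D, late cornified envelope genes with close paralogs, stood at 30.0 and 9.03 in shIL1R cells, against 284 and 564 in shScr cells (-4.51 ± 0.77, adjusted p = 0.00741) and at 8.39 and 1.13 in shIL1R cells, against 41.3 and 167 in shScr cells (-4.24 ± 0.79, adjusted p = 0.0106). IVL (involucrin) stood at 99.5 and 14.7 in shIL1R cells, against 293 and 543 in shScr cells (-3.33 ± 0.75, adjusted p = 0.0227). EHF, an epithelial ETS transcription factor, had 652 and 168 normalized counts in shIL1R cells, against 4125 and 4494 in shScr cells (-3.70 ± 0.51, adjusted p = 0.00334). The groups did not overlap for any of these, which the rule that picked them required. KRT5 and KRT14, keratins of the basal epidermis, were at 0 in all 4 libraries. Other deep falls were in MRGPRX3, a G protein-coupled receptor (-3.47 ± 0.48, adjusted p = 0.00339), the esterase CES1 (-4.41 ± 1.05, adjusted p = 0.0272), the organic anion transporter SLCO2B1 (-3.34 ± 0.64, adjusted p = 0.0123), TTC9 (-3.52 ± 0.81, adjusted p = 0.025) and TMEM151B (-3.37 ± 0.54, adjusted p = 0.00555). SERPINB2, SERPINB7, PI3, LCE3D, LCE2D, IVL, MRGPRX3, CES1, SLCO2B1, TTC9 and TMEM151B did not pass without shScr replicate 2 of day 10 (adjusted p from 0.0508 to 0.204, and from 1.55e-13 to 0.204 over all alternatives). CES1 and TTC9 missed the threshold without shScr replicate 1 of day 10 (adjusted p from 0.0572 to 0.0668, and from 5.22e-04 to 0.204 over all alternatives). IVL, CES1 and TTC9 did not pass without shIL1R replicate 2 of day 10 (adjusted p from 0.0843 to 0.0985, and from 1.75e-04 to 0.204 over all alternatives). IVL had a log2 fold change of -1.99, and CES1 of -2.50, without shIL1R replicate 2 of day 10.

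Among growth factors and IGF-binding proteins 30 genes were tested, of which 7 fell and 2 rose, with a median of -0.34. Ligands of the epidermal growth factor receptor family were among the falls. NRG1 (neuregulin 1) had 1498 and 1316 normalized counts in shIL1R cells, against 4418 and 5869.7 in shScr cells (-1.86 ± 0.13, adjusted p = 5.21e-05). HBEGF had 289 and 287 normalized counts in shIL1R cells, against 592 and 705 in shScr cells (-1.16 ± 0.16, adjusted p = 0.00317). EREG (epiregulin) had 1151 and 691 normalized counts in shIL1R cells, against 2000.2 and 2298 in shScr cells (-1.26 ± 0.29, adjusted p = 0.0229). INHBA, the subunit of activin A, had 14156 and 5645 normalized counts in shIL1R cells, against 31807 and 43209.6 in shScr cells (-2.05 ± 0.38, adjusted p = 0.00986). IGFBP2, which binds insulin-like growth factors, rose (176 and 353 normalized counts in shIL1R cells, against 60.2 and 97.2 in shScr cells, 1.69 ± 0.36, adjusted p = 0.0182). GDF15, a stress cytokine, had 75159.8 and 19992 normalized counts in shIL1R cells, against 60122 and 57776 in shScr cells, groups that overlap (-0.60 ± 0.46, adjusted p = 0.422). EREG, INHBA and IGFBP2 did not pass without shScr replicate 2 of day 10 (adjusted p from 0.0632 to 0.178, and from 1.89e-04 to 0.178 over all alternatives). EREG and IGFBP2 missed the threshold without shScr replicate 1 of day 10 and without shIL1R replicate 2 of day 10 (adjusted p from 0.0536 to 0.101, and from 2.25e-04 to 0.178 over all alternatives).

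Of 13 prostaglandin synthesis and receptor genes tested 2 fell and 1 rose. PTGS2 (cyclooxygenase 2), the inducible form, had 561 and 243 normalized counts in shIL1R cells, against 2003 and 2443 in shScr cells (-2.58 ± 0.38, adjusted p = 0.00403), and PTGS1, the constitutive form, rose, with 4430.5 and 5216 normalized counts in shIL1R cells, against 3500.0 and 2902 in shScr cells (0.59 ± 0.15, adjusted p = 0.034). The groups were separate in each, in opposite directions. PTGES3 fell slightly (-0.42 ± 0.11, adjusted p = 0.0344). Of 14 receptors and ligands of the tumour necrosis factor superfamily 2 fell and 2 rose, 14.3% each, against 4.85% lower and 4.37% higher of all genes tested. The decoy receptor TNFRSF10D (-0.88 ± 0.20, adjusted p = 0.0233) and TNFRSF1B (-0.56 ± 0.16, adjusted p = 0.0471) fell. TNFSF4 (0.96 ± 0.26, adjusted p = 0.0447) and the main tumour necrosis factor receptor TNFRSF1A (0.35 ± 0.071, adjusted p = 0.0163) rose. Of 9 Toll-like receptor and inflammasome genes tested TLR2 fell, with 3.60 and 1.13 normalized counts in shIL1R cells, against 24.8 and 46.6 in shScr cells (-3.48 ± 0.75, adjusted p = 0.0196), and CASP1, the protease that matures interleukin-1 beta, rose, with 516 and 570.0 normalized counts in shIL1R cells, against 372 and 273 in shScr cells (0.76 ± 0.16, adjusted p = 0.0182). PTGS2, PTGS1, PTGES3, TNFRSF10D, TNFRSF1B, TNFSF4, TNFRSF1A, TLR2 and CASP1 did not pass without shScr replicate 2 of day 10 (adjusted p from 0.0562 to 0.273, and from 1.22e-05 to 0.273 over all alternatives). PTGES3, TNFRSF1B and TNFSF4 missed the threshold without shScr replicate 1 of day 10 (adjusted p from 0.0758 to 0.146, and from 0.00244 to 0.224 over all alternatives). PTGS1, PTGES3, TNFRSF10D, TNFRSF1B, TNFSF4, TLR2 and CASP1 did not pass without shIL1R replicate 2 of day 10 (adjusted p from 0.0657 to 0.199, and from 4.40e-04 to 0.273 over all alternatives). PTGS1, PTGES3, TNFRSF1B and TNFSF4 missed the threshold without a day 0 or day 4 library (adjusted p from 0.0501 to 0.0772, and from 0.00244 to 0.273 over all alternatives). PTGES3 had a log2 fold change of -0.28, and TNFSF4 of 0.55, without shIL1R replicate 2 of day 10.

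**Figure D3:**
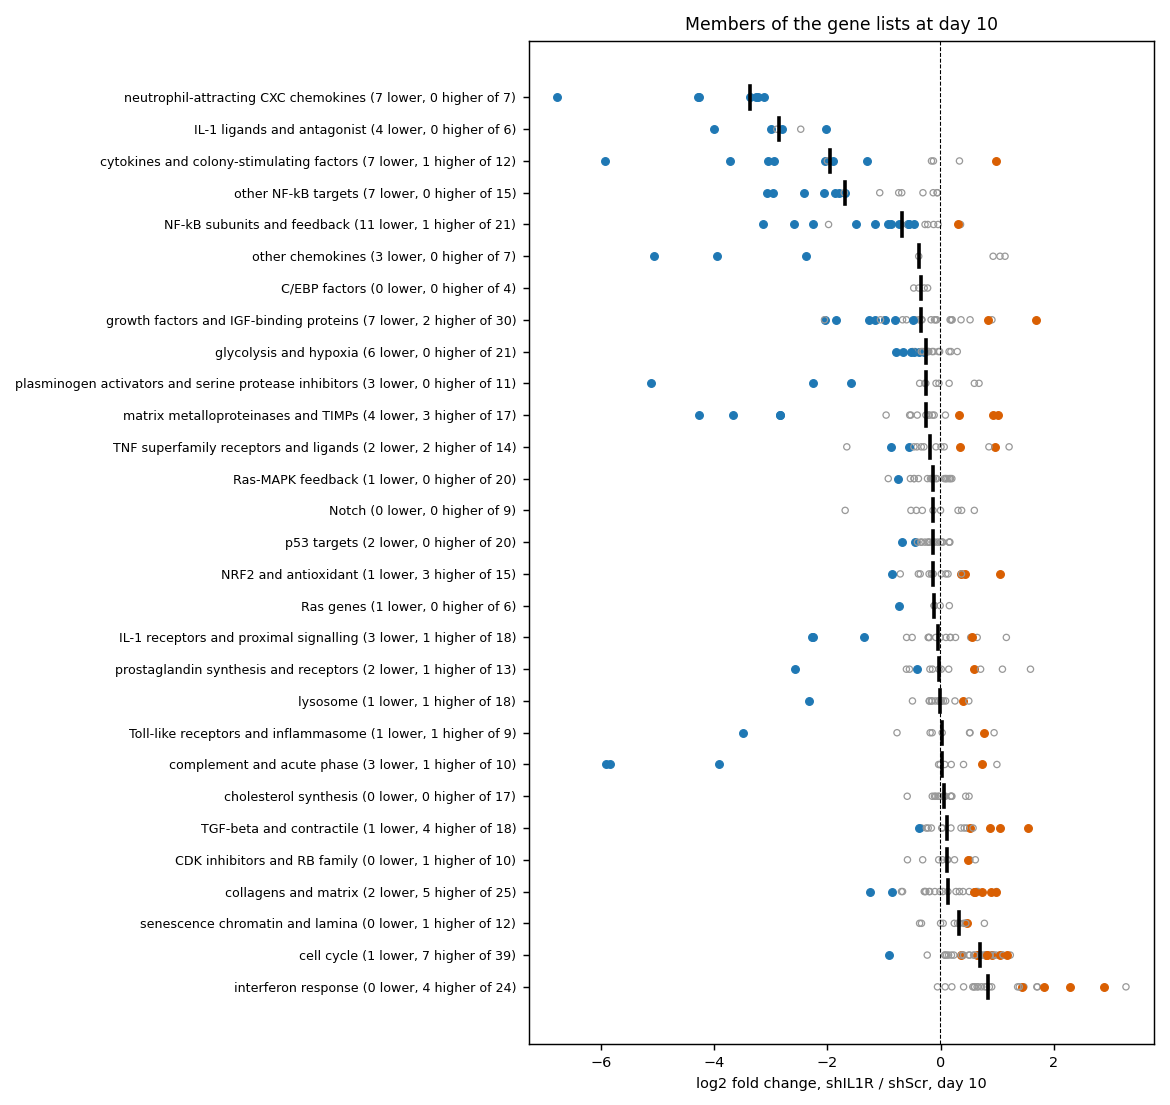
Log2 fold change of shIL1R against shScr cells at day 10 for the tested members of 29 gene lists, with filled points for genes called (blue lower, orange higher), open points for the rest, a black bar at the median of a list and a dashed line at the median of all genes. Medians run from -3.37 for the neutrophil-attracting chemokines to 0.84 for the interferon response.

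Of 39 cell cycle genes tested 7 were higher and 1 lower in shIL1R cells, with a median log2 fold change of 0.69, and the shIL1R libraries differed: the median over the list was 0.10 above the shScr mean in replicate 1 and 1.25 in replicate 2. FOXM1, which drives mitotic genes, had 269 and 600.5 normalized counts in shIL1R cells, against 171 and 218 in shScr cells (1.05 ± 0.28, adjusted p = 0.0393). BIRC5 (survivin) had 163 and 431 in shIL1R cells, against 123 and 112 in shScr cells (1.17 ± 0.31, adjusted p = 0.0418). TPX2 had 410.1 and 789 in shIL1R cells, against 299 and 348 in shScr cells (0.82 ± 0.22, adjusted p = 0.0434) and CCNB2 (cyclin B2) 102 and 214 in shIL1R cells, against 85.0 and 72.9 in shScr cells (0.90 ± 0.25, adjusted p = 0.0494). In each, replicate 1 of shIL1R lay nearer the shScr libraries than replicate 2 did. MKI67, the proliferation antigen, had 229 and 849 normalized counts in shIL1R cells, against 216 and 257 in shScr cells and did not pass (0.90 ± 0.43, adjusted p = 0.205). At day 0 MKI67 had 9232 and 9197 in shIL1R cells, against 11210.1 and 13818 in shScr cells, so every day 10 library lay far under the growing cells. CCNE1 (cyclin E1), which starts S phase, was lower (145 and 121 normalized counts in shIL1R cells, against 253 and 246 in shScr cells, -0.91 ± 0.16, adjusted p = 0.00897). FOXM1, BIRC5, TPX2, CCNB2 and CCNE1 did not pass without shScr replicate 2 of day 10 (adjusted p from 0.0755 to 0.296, and from 2.70e-06 to 0.312 over all alternatives). FOXM1, BIRC5, TPX2 and CCNB2 missed the threshold without shScr replicate 1 of day 10 and without a day 0 or day 4 library (adjusted p from 0.0539 to 0.149, and from 2.70e-06 to 0.312 over all alternatives). FOXM1, TPX2 and CCNB2 did not pass without shIL1R replicate 2 of day 10 (adjusted p from 0.0865 to 0.128, and from 2.52e-05 to 0.312 over all alternatives). FOXM1 had a log2 fold change of 0.47, and BIRC5 of 0.47, TPX2 of 0.35 and CCNB2 of 0.37, without shIL1R replicate 2 of day 10. FOXM1 had a log2 fold change of 1.63, and BIRC5 of 1.87, TPX2 of 1.29 and CCNB2 of 1.43, without shIL1R replicate 1 of day 10. The count of higher genes was 32 and 1 without shIL1R replicate 1 and 2 of day 10 in turn, and 0 and 0 without shScr replicate 1 and 2 of day 10 in turn.

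Of 10 CDK inhibitor and RB family genes tested 1 rose (10%, against 4.37% of all genes tested). CDKN2A, the p16 gene, had 809 and 874 normalized counts in shIL1R cells, against 583 and 619 in shScr cells (0.48 ± 0.12, adjusted p = 0.0344). CDKN2B (p15) had 2257 and 3079 normalized counts in shIL1R cells, against 1998 and 1486 in shScr cells (0.61 ± 0.18, adjusted p = 0.053) and CDKN1A (p21) 65270.0 and 37469.9 in shIL1R cells, against 69197 and 79731 in shScr cells (-0.59 ± 0.24, adjusted p = 0.14), and neither passed. Of 12 senescence chromatin and lamina genes tested 1 rose (8.33%, against 4.37% of all genes tested). It was HMGA1, a chromatin protein of senescence foci, with 71176 and 64608 normalized counts in shIL1R cells, against 50914 and 46902 in shScr cells (0.47 ± 0.11, adjusted p = 0.024). LMNB1 (lamin B1), which is lost in senescence, had 63.5 and 216 normalized counts in shIL1R cells, against 82.6 and 90.1 in shScr cells at day 10 (0.44 ± 0.41, adjusted p = 0.53), with replicate 2 of shIL1R above the other 3 libraries, and 2064 and 2523 in shIL1R cells, against 2768 and 2561 in shScr cells at day 0. Of 20 p53 targets tested 2 fell (10%, against 4.85% of all genes tested), the p53 ligase MDM2 (-0.46 ± 0.11, adjusted p = 0.0293) and the ribonucleotide reductase subunit RRM2B (-0.68 ± 0.15, adjusted p = 0.0195). GLB1, which encodes the lysosomal beta-galactosidase behind the senescence stain, had 5482 and 5067 normalized counts in shIL1R cells, against 5128 and 5062 in shScr cells (0.049 ± 0.077, adjusted p = 0.723), and all 4 values lie within a narrow range. CDKN2A, HMGA1, MDM2 and RRM2B did not pass without shScr replicate 2 of day 10 (adjusted p from 0.155 to 0.251, and from 4.90e-04 to 0.251 over all alternatives). CDKN2A missed the threshold without shScr replicate 1 of day 10 and without a day 0 or day 4 library (adjusted p from 0.0534 to 0.111, and from 0.00894 to 0.193 over all alternatives). CDKN2A, MDM2 and RRM2B did not pass without shIL1R replicate 2 of day 10 (adjusted p from 0.0714 to 0.117, and from 6.99e-04 to 0.251 over all alternatives). RRM2B had a log2 fold change of -0.44 without shIL1R replicate 2 of day 10.

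Interferon-induced genes leaned upward. Of 24 tested 4 rose and 0 fell by limma, with a median log2 fold change of 0.84, and at an unadjusted p below 0.05 17 were higher and 0 lower, against 13.1% and 14.3% of all genes. IFIT1, which blocks viral RNA, had 73.1 and 221 normalized counts in shIL1R cells, against 36.6 and 17.2 in shScr cells (2.29 ± 0.53, adjusted p = 0.0243). OAS2, a sensor of double-stranded RNA, had 32.4 and 68.8 normalized counts in shIL1R cells, against 9.44 and 3.04 in shScr cells (2.89 ± 0.69, adjusted p = 0.0277). USP18, a brake on interferon signalling, had 205 and 511 normalized counts in shIL1R cells, against 133 and 61.8 in shScr cells (1.82 ± 0.40, adjusted p = 0.0199), and IFI6 1048 and 2067 in shIL1R cells, against 794 and 371 in shScr cells (1.44 ± 0.35, adjusted p = 0.0293). Replicate 2 of shIL1R was the highest and replicate 2 of shScr the lowest library in all 4 genes. IFIT1, OAS2, USP18 and IFI6 did not pass without shScr replicate 2 of day 10 and without shIL1R replicate 2 of day 10 (adjusted p from 0.0797 to 0.251, and from 6.51e-05 to 0.251 over all alternatives). IFI6 had a log2 fold change of 0.89 without shScr replicate 2 of day 10. IFIT1 had a log2 fold change of 1.5, and USP18 of 1.17 and IFI6 of 0.95, without shIL1R replicate 2 of day 10. Leaving out shIL1R replicate 1 or 2 of day 10 gave 13 and 0 genes higher, and leaving out shScr replicate 1 or 2 gave 12 and 0. edgeR called 4 and DESeq2 5 higher, and both called 0 lower.

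Of 20 feedback genes of the Ras and MAP kinase pathway tested 1 fell (5%, against 4.85% of all genes tested). It was the phosphatase DUSP4 (1697 and 1353 normalized counts in shIL1R cells, against 2809.7 and 2331 in shScr cells, -0.76 ± 0.14, adjusted p = 0.0117). DUSP6, which removes phosphate from ERK, had 8085 and 7254 normalized counts in shIL1R cells, against 9771 and 10339.8 in shScr cells and did not pass (-0.39 ± 0.12, adjusted p = 0.0627). Of 18 TGF-beta and contractile genes tested 4 rose and 1 fell. ID1, ID2 and ID3, inhibitors of helix-loop-helix factors that bone morphogenetic proteins induce, were 3 of those that rose. ID1 had 350.1 and 489.8 normalized counts in shIL1R cells, against 149.9 and 135 in shScr cells (1.54 ± 0.19, adjusted p = 0.00252). ID2 had 363 and 234 in shIL1R cells, against 138 and 144 in shScr cells (1.04 ± 0.25, adjusted p = 0.0267) and ID3 547 and 472 in shIL1R cells, against 251 and 305 in shScr cells (0.87 ± 0.21, adjusted p = 0.0295). All shIL1R values were above all shScr values. CNN1 (calponin) rose (0.52 ± 0.13, adjusted p = 0.032) and LTBP2 fell (-0.38 ± 0.10, adjusted p = 0.0447). Of 25 collagen and matrix genes tested 5 rose and 2 fell. COL10A1 (348 and 372 normalized counts in shIL1R cells, against 771 and 962 in shScr cells, -1.26 ± 0.23, adjusted p = 0.00927) and COL8A1 (1445 and 1683 in shIL1R cells, against 2531 and 3148 in shScr cells, -0.86 ± 0.14, adjusted p = 0.00555) fell, and COL12A1 (0.73 ± 0.19, adjusted p = 0.0388), the proteoglycan DCN (0.88 ± 0.20, adjusted p = 0.024) and FBLN1 (0.97 ± 0.23, adjusted p = 0.0288) rose. COL1A1, the main fibrillar collagen, had 65668 and 159730.5 normalized counts in shIL1R cells, against 71414 and 61449.7 in shScr cells (0.63 ± 0.31, adjusted p = 0.22). Replicate 2 of shIL1R alone was high there. DUSP4, ID2, ID3, CNN1, LTBP2, COL10A1, COL8A1, COL12A1, DCN and FBLN1 did not pass without shScr replicate 2 of day 10 (adjusted p from 0.0508 to 0.229, and from 1.47e-09 to 0.229 over all alternatives). DUSP4, ID2, ID3, CNN1, LTBP2, COL12A1 and FBLN1 missed the threshold without shScr replicate 1 of day 10 (adjusted p from 0.0544 to 0.167, and from 4.95e-05 to 0.229 over all alternatives). DUSP4, ID3, CNN1, LTBP2, COL12A1, DCN and FBLN1 did not pass without shIL1R replicate 2 of day 10 (adjusted p from 0.0516 to 0.167, and from 4.95e-05 to 0.229 over all alternatives). ID2 missed the threshold without shIL1R replicate 1 of day 10 (adjusted p = 0.0541, and from 0.0012 to 0.157 over all alternatives). CNN1, LTBP2 and COL12A1 did not pass without a day 0 or day 4 library (adjusted p from 0.0518 to 0.0753, and from 0.00235 to 0.229 over all alternatives). DCN had a log2 fold change of 0.51, and FBLN1 of 0.50, without shIL1R replicate 2 of day 10.

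Of 18 lysosome genes tested 1 fell and 1 rose, each 5.56%, against 4.85% lower and 4.37% higher of all genes tested. CTSS (cathepsin S), a protease best known from antigen-presenting cells, had 1149 and 469.5 normalized counts in shIL1R cells, against 3813 and 3540.5 in shScr cells (-2.32 ± 0.39, adjusted p = 0.00722). NPC2, which carries cholesterol out of the lysosome, rose (0.39 ± 0.085, adjusted p = 0.02). Of 15 NRF2 and antioxidant genes tested 3 rose, among them the cystine transporter SLC7A11 (476 and 471 normalized counts in shIL1R cells, against 186 and 278 in shScr cells, 1.05 ± 0.20, adjusted p = 0.0117) and NQO1 (0.44 ± 0.11, adjusted p = 0.0374), and 1 fell, the glutathione enzyme GCLM (213 and 221 normalized counts in shIL1R cells, against 388 and 399 in shScr cells, -0.85 ± 0.11, adjusted p = 0.00285). Of 21 glycolysis and hypoxia genes tested 6 fell, by small amounts, among them CA12 (-0.78 ± 0.17, adjusted p = 0.0196), PFKFB4 (-0.67 ± 0.16, adjusted p = 0.0273), BNIP3 (-0.52 ± 0.13, adjusted p = 0.0324), ENO2 (-0.48 ± 0.081, adjusted p = 0.00731) and PGK1 (-0.38 ± 0.093, adjusted p = 0.0298). Of 9 Notch and 17 cholesterol synthesis genes tested limma called 0. At an unadjusted p below 0.05 3 Notch genes were lower, and 1 cholesterol gene was lower and 1 higher. Over all genes tested 14.3% were lower and 13.1% higher at that threshold. edgeR called 0 in both, and DESeq2 called 1 cholesterol gene lower and 0 Notch genes. The largest changes there were in JAG2 (-1.69 ± 0.66, adjusted p = 0.127), HES1 (0.59 ± 0.37, adjusted p = 0.325), INSIG1 (-0.59 ± 0.20, adjusted p = 0.0876) and MVK (0.50 ± 0.21, adjusted p = 0.149). CTSS, NPC2, NQO1, CA12, PFKFB4, BNIP3, ENO2 and PGK1 did not pass without shScr replicate 2 of day 10 (adjusted p from 0.0516 to 0.268, and from 1.00e-05 to 0.283 over all alternatives). SLC7A11, NQO1, CA12, PFKFB4 and BNIP3 missed the threshold without shScr replicate 1 of day 10 (adjusted p from 0.0508 to 0.0923, and from 8.30e-05 to 0.276 over all alternatives). CA12, PFKFB4, BNIP3 and PGK1 did not pass without shIL1R replicate 2 of day 10 (adjusted p from 0.059 to 0.125, and from 2.84e-04 to 0.283 over all alternatives). NQO1 missed the threshold without shIL1R replicate 1 of day 10 (adjusted p = 0.069, and from 0.00637 to 0.276 over all alternatives). NQO1, BNIP3 and PGK1 did not pass without a day 0 or day 4 library (adjusted p from 0.0518 to 0.0618, and from 9.45e-04 to 0.283 over all alternatives). BNIP3 had a log2 fold change of -0.30 without shIL1R replicate 2 of day 10. NQO1 had a log2 fold change of 0.25 without shIL1R replicate 1 of day 10.

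The transferrin receptor and 2 iron transporters fell, all chosen after their values were seen, as was a ferritin gene. TFRC, the transferrin receptor that brings iron into the cell, had 2127 and 2237 normalized counts in shIL1R cells, against 5384 and 5473 in shScr cells (-1.31 ± 0.10, adjusted p = 8.97e-05). SLC11A2 (DMT1), which moves iron out of the endosome, had 1216 and 1116 normalized counts in shIL1R cells, against 2488 and 2737 in shScr cells (-1.16 ± 0.12, adjusted p = 7.98e-04). SLC25A37 (mitoferrin 1), which brings iron into mitochondria, had 1603 and 1466 normalized counts in shIL1R cells, against 2808 and 2387 in shScr cells (-0.76 ± 0.11, adjusted p = 0.00396). The 2 shIL1R libraries lay close to each other and apart from the shScr libraries in all 3 genes. FTH1, a ferritin gene, had 42341 and 31481 normalized counts in shIL1R cells, against 51577 and 44658 in shScr cells and did not pass (-0.39 ± 0.13, adjusted p = 0.0842).

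Among the genes that rose most were surface receptors. IL21R, the interleukin-21 receptor, had 46.8 and 68.8 normalized counts in shIL1R cells, against 7.08 and 15.2 in shScr cells (2.34 ± 0.34, adjusted p = 0.004). S1PR1, which senses sphingosine 1-phosphate, had 127 and 199 normalized counts in shIL1R cells, against 49.6 and 45.6 in shScr cells (1.72 ± 0.24, adjusted p = 0.00334). P2RY2, a receptor for extracellular ATP and UTP, had 177 and 186 in shIL1R cells, against 81.4 and 37.5 in shScr cells (1.70 ± 0.33, adjusted p = 0.0128). KIT, the stem cell factor receptor, had 155 and 151 in shIL1R cells, against 47.2 and 51.6 in shScr cells (1.61 ± 0.30, adjusted p = 0.0115). In all of these the lower shIL1R library exceeded the higher shScr library, which the rule that picked them required. LYPD1 had close values within each group, with 795 and 810.4 normalized counts in shIL1R cells, against 279.7 and 303 in shScr cells (1.46 ± 0.091, adjusted p = 3.76e-05). The heparin-binding growth factor PTN (pleiotrophin, 1.51 ± 0.17, adjusted p = 0.0012), the proteoglycan PODN (2.08 ± 0.33, adjusted p = 0.00525), the integrin ITGA10 (1.66 ± 0.25, adjusted p = 0.00473), the protocadherin PCDH18 (1.48 ± 0.20, adjusted p = 0.00334) and the oxysterol receptor NR1H3 (1.47 ± 0.22, adjusted p = 0.00416) rose as well. So did the retinal reductase DHRS3 (1.80 ± 0.35, adjusted p = 0.0131), TMEFF2 (1.77 ± 0.37, adjusted p = 0.0177), SECTM1 (1.77 ± 0.27, adjusted p = 0.00502), the long noncoding RNA MIAT (1.73 ± 0.39, adjusted p = 0.0238), SLITRK6 (1.65 ± 0.26, adjusted p = 0.0055), the imprinted gene NNAT (1.60 ± 0.35, adjusted p = 0.021), the water channel AQP3 (1.58 ± 0.26, adjusted p = 0.00614), LIN7A (1.52 ± 0.17, adjusted p = 0.00126), CTTNBP2 (1.47 ± 0.22, adjusted p = 0.00438) and UBA7, which attaches ISG15 to proteins (1.52 ± 0.34, adjusted p = 0.0229). P2RY2, KIT, PODN, ITGA10, NR1H3, DHRS3, TMEFF2, SECTM1, MIAT, SLITRK6, NNAT, AQP3, CTTNBP2 and UBA7 did not pass without shScr replicate 2 of day 10 (adjusted p from 0.0528 to 0.216, and from 6.24e-08 to 0.216 over all alternatives). DHRS3, TMEFF2, MIAT, NNAT and UBA7 missed the threshold without shIL1R replicate 2 of day 10 (adjusted p from 0.0609 to 0.0937, and from 1.75e-05 to 0.216 over all alternatives). TMEFF2 had a log2 fold change of 1.11, and NNAT of 0.94 and UBA7 of 0.89, without shIL1R replicate 2 of day 10.

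Few genes passed between the genotypes before day 10. At day 4, 33 genes were lower and 6 higher (0.237% and 0.0431% of those tested), and at day 0, 5 were lower and 4 higher (0.0359% and 0.0287%). By limma at an unadjusted p below 0.05 there were 2540 genes at day 4 and 1187 at day 0, against 3815 at day 10. A low count of calls is therefore not a measure of how little the genotypes differed. Of the 675 genes lower at day 10, 23 were also lower at day 4, which is 3.41% of the 675 and 69.7% of the 33, and 576 (85.3%) had a fold change below 0 at day 4, against 50.1% of all genes. Of the 608 higher, 3 were also higher at day 4 (GAS5, HHEX and TMEM106C, named after their values were seen), and 499 (82.1%) had a fold change above 0, against 49.9% of all genes. At day 0, 44.3% of the lower and 52.3% of the higher genes had the same sign, against 52.2% and 47.8% of all genes. The 3 days share no libraries, though they share the shIL1R and shScr lines. IL1R1 was called at day 4 (272 and 86.4 in shIL1R cells, against 1546 and 1423 in shScr cells, -3.27 ± 0.42, adjusted p = 0.0205) and not at day 0 (731 and 378 in shIL1R cells, against 1509 and 1552 in shScr cells, -1.54 ± 0.42, adjusted p = 0.281). LIF (1492 and 1001 in shIL1R cells, against 2247 and 2629 in shScr cells, -0.99 ± 0.17, adjusted p = 0.0464) and TNFSF15 (832 and 627 in shIL1R cells, against 3185 and 2429 in shScr cells, -1.94 ± 0.32, adjusted p = 0.0434) were lower already at day 4. IL6 at day 4 had 124 and 57.6 normalized counts in shIL1R cells, against 375 and 166 in shScr cells (-1.55 ± 0.43, adjusted p = 0.119) and CSF3 10.7 and 6.64 in shIL1R cells, against 79.9 and 61.5 in shScr cells (-2.91 ± 0.66, adjusted p = 0.0821), with groups apart but not past the threshold. TFRC was lower at day 4 (1719 and 1378 in shIL1R cells, against 3178 and 3103 in shScr cells, -1.03 ± 0.10, adjusted p = 0.00387) and had no call at day 0 (2294 and 2501 in shIL1R cells, against 2392 and 2359 in shScr cells, 0.012 ± 0.10, adjusted p = 0.992). Without 1 library the day 4 counts ran from 1 to 421 lower and from 0 to 320 higher, highest without a shIL1R library of day 10, and the day 0 counts from 1 to 23 and from 0 to 39. Of the 10 genes named here and called at day 4 PXT1 passed in all 12 fits that left out 1 library, TFRC in 10, lost without either shScr library of day 4 (adjusted p up to 0.0791), IL1R1 in 8, lost without any shScr library of day 0 or 4 (up to 0.144), and LIF and TNFSF15 in 3 (up to 0.359 and 0.427), all with the same sign. GAS5 and HHEX did not pass without shScr replicate 2 of day 10 (adjusted p from 0.0503 to 0.156, and from 3.34e-07 to 0.181 over all alternatives). HHEX missed the threshold without shIL1R replicate 2 of day 10 (adjusted p = 0.0732, and from 0.012 to 0.181 over all alternatives).

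The change of the genotype difference between days was tested as an interaction. Against day 0, 214 genes had a more negative difference at day 10 (1.54% of those tested) and 122 a more positive one (0.876%), in a test that shares the day 10 libraries with the day 10 comparison. For several SASP genes the shIL1R libraries were the higher ones in growing cells. C3 had 1431 and 1963 normalized counts in shIL1R cells, against 343 and 259.5 in shScr cells at day 0, MMP3 had 957 and 1913 in shIL1R cells, against 376 and 379 in shScr cells, and IL6 had 259 and 337 in shIL1R cells, against 125 and 110.2 in shScr cells. None of these day 0 differences passed (adjusted p = 0.163, 0.116 and 0.385), whereas the change of the difference did (C3 -6.40 ± 0.79, adjusted p = 0.00353, MMP3 -4.68 ± 0.52, adjusted p = 0.00204, IL6 -5.05 ± 0.61, adjusted p = 0.00333). Against day 4, 7 genes had a more negative difference (0.0503%) and 4 a more positive one (0.0287%). The 7 were CXCL5 (-5.06 ± 0.61, adjusted p = 0.0168), IRAK3 (-2.04 ± 0.21, adjusted p = 0.0114), SOD2 (-1.54 ± 0.18, adjusted p = 0.0163), SLC11A2 (-1.23 ± 0.17, adjusted p = 0.0319), SLC25A37 (-1.07 ± 0.15, adjusted p = 0.0383), the cystatin CST4 (-2.41 ± 0.35, adjusted p = 0.0383), whose close paralogs make its count uncertain, and LRRC15 (-1.75 ± 0.26, adjusted p = 0.0474). The 4 were LYPD1 (1.10 ± 0.13, adjusted p = 0.0163), LIN7A (1.79 ± 0.25, adjusted p = 0.0319), LMO7 (1.01 ± 0.15, adjusted p = 0.0383) and XRCC4, a DNA repair factor (1.32 ± 0.17, adjusted p = 0.0253). IRAK3 shows the pattern: it had 577 and 630.0 in shIL1R cells, against 520.0 and 502 in shScr cells at day 0, 179.7 and 148 in shIL1R cells, against 190.2 and 190.2 in shScr cells at day 4 and 112 and 88.0 in shIL1R cells, against 496 and 462 in shScr cells at day 10. LYPD1 had 2942 and 2775 in shIL1R cells, against 2856 and 2947 in shScr cells at day 0, 1980.1 and 2143 in shIL1R cells, against 1719.8 and 1504 in shScr cells at day 4 and 795 and 810.4 in shIL1R cells, against 279.7 and 303 in shScr cells at day 10. Without 1 library the counts against day 4 ran from 0 to 673 and from 0 to 736, highest without replicate 1 of shIL1R day 10 and 0 without replicate 2 of shScr day 10 or without a shScr library of day 0 or 4. None of the 11 passed in all 12 such fits. IRAK3 and SOD2 passed in 7 (adjusted p up to 0.0793 and 0.0856), CXCL5 and LYPD1 in 6, and the others in 2 to 4 (up to 0.24), with the same sign in every fit, and edgeR did not call CXCL5 (adjusted p = 0.13). CST4, LRRC15, LMO7 and XRCC4 lie outside the rule for named genes and were chosen after their values were seen. CST4 did not pass without shScr replicate 2 of day 10 (adjusted p = 0.0661, and from 2.42e-16 to 0.0661 over all alternatives).

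**Figure D4:**
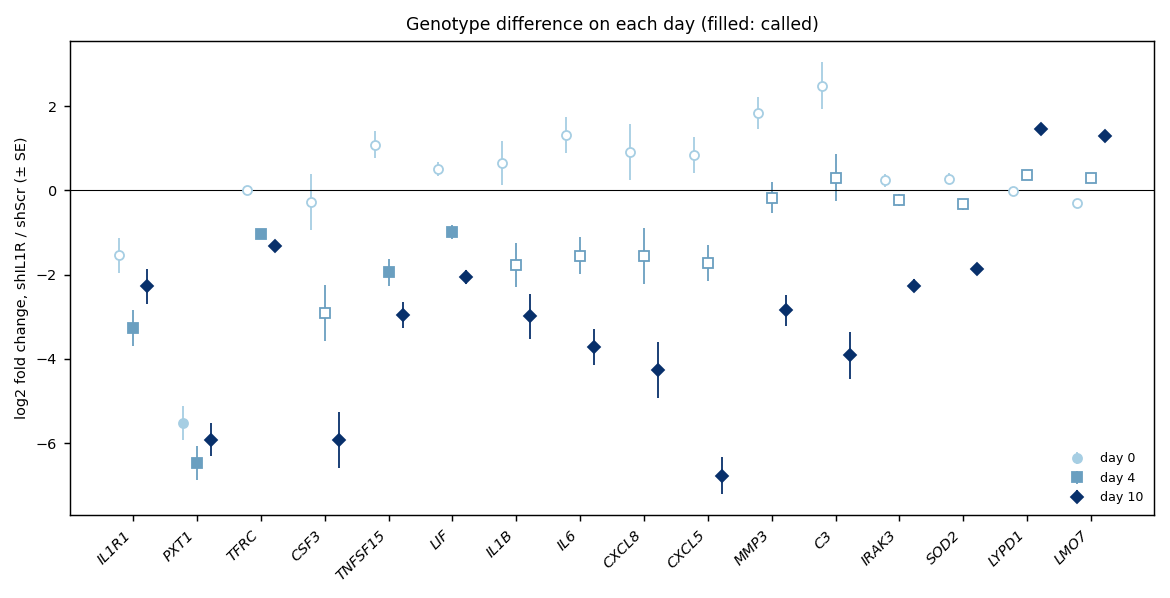
Log2 fold change of shIL1R against shScr cells with its SE (vertical axis) on days 0, 4 and 10 for 16 genes, with filled symbols where limma's adjusted p was below 0.05. PXT1 is lower on all 3 days, TFRC, TNFSF15 and LIF on days 4 and 10, and CXCL5, MMP3, C3, IRAK3 and SOD2 at day 10, where LYPD1 and LMO7 are higher.

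A few genes differed already in growing cells. PXT1 had 0.898 and 0.861 normalized counts in shIL1R cells, against 79.9 and 91.0 in shScr cells at day 0, 0 and 0 in shIL1R cells, against 82.8 and 93.7 in shScr cells at day 4 and 0 and 1.13 in shIL1R cells, against 88.5 and 86.1 in shScr cells at day 10 (adjusted p = 3.89e-04, 7.27e-05 and 3.76e-05). It was at or near 0 in all 6 shIL1R libraries and present in all 6 shScr libraries. CHDH, a choline dehydrogenase, had 1.80 and 0 normalized counts in shIL1R cells, against 46.9 and 40.9 in shScr cells at day 0 and 1.20 and 0 in shIL1R cells, against 35.4 and 28.4 in shScr cells at day 10. It passed on both days (adjusted p = 0.0216 and 0.00377). OR51B5 had 0 and 0.861 normalized counts in shIL1R cells, against 13.8 and 19.2 in shScr cells at day 0, where it did not pass (adjusted p = 0.0542), and 0 and 0 in shIL1R cells, against 7.08 and 13.2 in shScr cells at day 10 (adjusted p = 0.00613). ERCC6, a DNA repair gene, was lower at day 0 (119 and 119 in shIL1R cells, against 259 and 263 in shScr cells, -1.13 ± 0.13, adjusted p = 0.00917) and day 10 (229 and 219 in shIL1R cells, against 323 and 367 in shScr cells, -0.62 ± 0.13, adjusted p = 0.0166). PXT1, CHDH and ERCC6 are among the 4 genes lower at both day 0 and day 10. CST4, lower at day 10, was higher at day 0 (14.4 and 12.9 in shIL1R cells, against 2.76 and 1.67 in shScr cells, 2.21 ± 0.25, adjusted p = 0.00917), a day 0 call that edgeR did not make (adjusted p = 0.12). Of the 12 fits that left out 1 library, the day 0 call of PXT1 passed in 12, of CST4 in 10 (adjusted p up to 0.137), of ERCC6 in 9 (up to 0.137) and of CHDH in 5 (up to 0.266). CHDH, OR51B5 and ERCC6 were chosen after their values were seen. OR51B5 and ERCC6 did not pass without shScr replicate 2 of day 10 (adjusted p from 0.078 to 0.155, and from 0.00437 to 0.192 over all alternatives). ERCC6 missed the threshold without shIL1R replicate 2 of day 10 (adjusted p = 0.0546, and from 0.00437 to 0.192 over all alternatives).

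The 2 shIL1R libraries of day 10 were less alike than those of any other group. Between them 1055 genes were more than 2-fold apart, against 426 between the shScr libraries of day 10 and 257 to 531 within the other groups. The main fit pools the spread over all groups, so it can understate the spread between these libraries. Replicate 2 was the farther from the shScr mean for 525 of the 675 lower genes (77.8%) and for 482 of the 608 higher genes (79.3%). Over the lower genes the median difference from the shScr mean was -0.58 on the log2 scale in replicate 1 and -0.78 in replicate 2, and over the higher genes it was 0.57 and 0.85. The receptor itself was about equal, with 295 normalized counts of IL1R1 in replicate 1 and 280 in replicate 2. CCL3 had 1962 in replicate 1 of shIL1R and 132 in replicate 2, and LIF, LYPD1, MMP10 and TFRC were close to equal in both. The cell cycle levels and COL1A1 also set replicate 2 apart. The sum of the collagen and matrix genes did not, with 1341668.5 and 1541460.5 normalized counts in shIL1R cells, against 1426631.4 and 1543700.4 in shScr cells. A sum follows its most abundant genes. The median difference of these genes from the shScr mean did separate the libraries, at -0.040 in replicate 1 and 0.39 in replicate 2. Whether hairpin, culture or handling lies behind the gap cannot be told apart, since the labels give none of these.

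**Figure D5:**
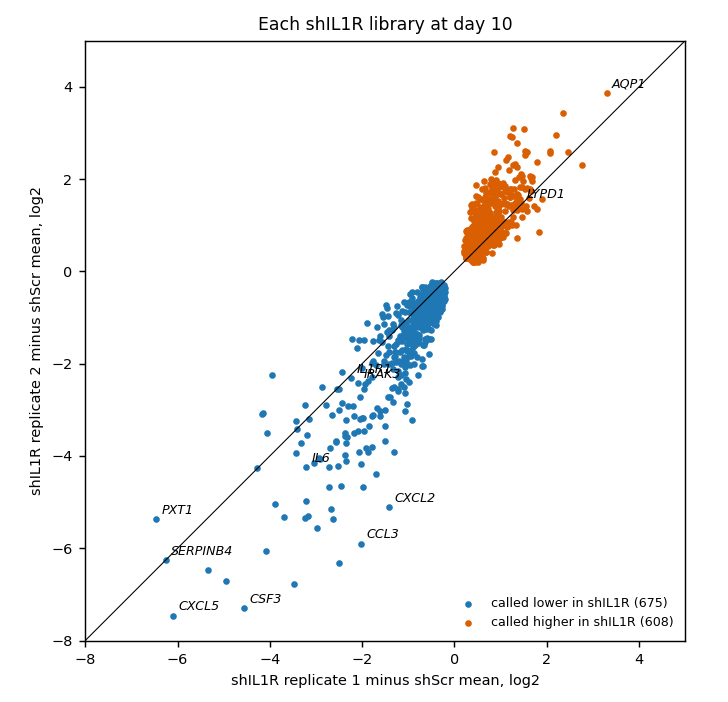
Difference of each shIL1R library of day 10 from the mean of the shScr libraries of day 10, on the log2 scale, replicate 1 on the horizontal and replicate 2 on the vertical axis, for the genes called lower (675, blue) and higher (608, orange). Most points lie farther from 0 for replicate 2 (off the diagonal line of equality), with CCL3 and CXCL2 far from the line and LYPD1, SERPINB4 and PXT1 near it.

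The libraries carried the markers of fibroblasts. VIM had 192483 and 178033 in shIL1R cells, against 194422 and 192427 in shScr cells, and the summed normalized counts of the 12 fibroblast markers were 325564 and 467778 in shIL1R cells, against 326927 and 315302 in shScr cells. TBX4 was near 0 throughout (0 and 2.26 in shIL1R cells, against 3.54 and 3.04 in shScr cells). Of 11 fibroblast markers tested 3 rose, DCN, PDGFRB (0.81 ± 0.14, adjusted p = 0.00812) and S100A4 (0.85 ± 0.19, adjusted p = 0.0225). The 7 leukocyte markers summed to 8522 and 5796 in shIL1R cells, against 9079 and 7436 in shScr cells with CD68, a lysosomal protein that fibroblasts also make, included (-0.21 ± 0.15, adjusted p = 0.421). The defining leukocyte markers were at or near 0, PTPRC with 2.40 and 0 in shIL1R cells, against 1.18 and 3.04 in shScr cells and CD3E with 0 in all 4 libraries, and LAPTM5 did not pass (37.2 and 6.77 in shIL1R cells, against 142 and 119.5 in shScr cells, -2.93 ± 0.91, adjusted p = 0.0691). The 7 endothelial markers summed to 2036 and 2179 in shIL1R cells, against 1896 and 1574 in shScr cells, and of 5 tested 0 passed. TEK had the largest values, with 1426 and 1818 in shIL1R cells, against 1182 and 1048 in shScr cells. TIE1 had 325 and 199 in shIL1R cells, against 539 and 403 in shScr cells (-0.87 ± 0.30, adjusted p = 0.0948). CDH5 was at 0 in all 4 libraries, and KDR was at 1.06 ± 0.64 (adjusted p = 0.31). The 7 epithelial markers summed to 2993 and 2790.1 in shIL1R cells, against 2079 and 2058 in shScr cells. KRT18 had the largest values, with 2444 and 2148 in shIL1R cells, against 1767 and 1717 in shScr cells, and did not pass. KRT5, KRT14 and SFTPC were at 0 in all 4 libraries. KRT8 was higher (542 and 640.0 normalized counts in shIL1R cells, against 308 and 335 in shScr cells, 0.87 ± 0.14, adjusted p = 0.00641). The 7 smooth muscle and neural markers summed to 15881 and 20322 in shIL1R cells, against 15041 and 16386 in shScr cells. The neural markers NES (9506 and 13691 in shIL1R cells, against 9033 and 9319 in shScr cells) and TUBB3 (4544 and 4089, against 4803 and 5499) had the largest values. Neither passed, nor did ACTG2 (0.67 ± 0.19, adjusted p = 0.0529) and DES (0.62 ± 0.46, adjusted p = 0.407). PDGFRB, S100A4 and KRT8 did not pass without shScr replicate 2 of day 10 (adjusted p from 0.0539 to 0.204, and from 1.22e-05 to 0.204 over all alternatives). S100A4 missed the threshold without shIL1R replicate 2 of day 10 (adjusted p = 0.0948, and from 0.00246 to 0.204 over all alternatives).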

How the data were processed

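Poly(A) RNA of IMR90 hTERT RasERT2 fibroblasts was sequenced in 12 libraries, 2 for each of 6 groups, with 24140324 to 30127727 reads on genes per library. The authors deposited 1 table of normalized counts per gene, here treated as a signal, made with TopHat on hg19, HTSeq and DESeq2 per the submitters' processing notes. Versions, annotation and the strand setting of counting are not given in the sources used here, so genes that overlap on opposite strands are uncertain. Each library's values were whole multiples of its smallest value (100% within 0.001), 0.835 to 1.20 normalized counts for 1 read, so 3 reads are 2.50 to 3.60.

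Genes with 10 or more normalized counts in at least 2 of the 12 columns (13924 of 27106) were fitted on log2(value + 1) with limma 3.58.1 in R 4.3.3, 6 group means over 12 libraries and eBayes with a trend, with 6 residual and 4.98 prior degrees of freedom. Benjamini-Hochberg adjustment ran over all genes tested, at 0.05. The added 1 understates the change of low genes. The fit was also run on simulated counts, and no result of that run is used here. Alternatives were edgeR 4.0.16 and DESeq2 1.42.0 on the recovered reads, and other pseudocounts, filters, scalings, blocks and left-out libraries.

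Members, gene lists and tests were chosen with earlier results of these data known. The genes named are IL1R1, HRAS, the 25 with the largest change in each direction among called genes that averaged at least 50 normalized counts in 1 of the groups without overlap, all measured members of 6 lists (the interleukin-1 ligands, receptors, chemokines, cytokines and NF-kB genes), up to 5 called members of each other list (the 2 with the largest change where none was called), and a fixed set. Outside this rule, and named after their values were seen, are AQP1, CHDH, CST4, ERCC6, FTH1, GAS5, HHEX, IL1RL2, LMO7, LRRC15, OR51B5, SLC11A2, SLC25A37, TFRC, TMEM106C and XRCC4. A few genes that the rule or the counts cover are not reported here.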

Additional observations from a re-analysis of the deposited data

Results flagged for a closer look

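The difference between shIL1R and shScr cells depended on the day for 61 of the 208 genes named and tested, by limma's test of the difference at day 10 minus that at day 0 (adjusted p from 5.07e-04 to 0.0475). Over all 13924 genes tested, 1.54% had a more negative and 0.876% a more positive difference at day 10. Many named genes were chosen for their day 10 difference, and the test shares those libraries. A larger share among the named genes follows in part from that choice. The values given are the change of the difference on the log2 scale. It was negative in 44, so shIL1R cells were lower relative to shScr cells at day 10 than at day 0. Among interleukin-1 ligands, chemokines and cytokines it was -7.62 for CXCL5, -5.65 for CSF3, -5.19 for CXCL8, -5.07 for CCL20, -5.05 for IL6, -4.83 for CXCL1, -4.40 for CXCL6, -4.20 for CXCL3, -4.05 for TNFSF15, -3.65 for IL1B, -3.51 for IL1A and -2.57 for LIF. Among receptor, NF-kB and acute phase genes it was -8.25 for SAA1, -7.73 for SAA2, -6.40 for C3, -3.80 for PDPN, -2.95 for ICAM1, -2.50 for IRAK3, -2.39 for ZC3H12A, -2.14 for SOD2 and -2.03 for NFKBIZ. Among proteases, serine protease inhibitors, growth factors and prostaglandin genes it was -4.68 for MMP3, -3.36 for MMP10, -2.78 for PTGS2, -2.16 for NRG1, -1.80 for EREG, -1.26 for MMP1 and -1.0 for HBEGF. Among other genes it was -5.08 for SERPINB4, -5.05 for TTC9, -4.79 for LCE3D, -4.39 for EHF, -3.78 for CST4, -3.65 for TMEM151B, -3.47 for MRGPRX3, -3.02 for CTSS, -1.62 for LRRC15, -1.48 for SLC11A2, -1.33 for TFRC, -1.11 for COL8A1, -1.0 for SLC25A37, -0.76 for DUSP6, -0.74 for GCLM and -0.72 for MDM2. It was positive in 17, with 3.29 for IL21R, 2.25 for ITGA10, 2.19 for NNAT, 2.15 for S1PR1, 1.96 for ID1, 1.74 for PTN, 1.67 for CTTNBP2, 1.65 for LIN7A, 1.60 for LMO7, 1.48 for LYPD1, 1.43 for NR1H3, 1.10 for XRCC4, 1.08 for KRT8, 0.85 for GAS5, 0.83 for HMGA1, 0.83 for NQO1 and 0.53 for TMEM106C. Of the 61 genes 20 passed in every fit that left out 1 of the 12 libraries, and all kept their sign. edgeR did not call this change for ICAM1 (adjusted p = 0.0642), IL1A (adjusted p = 0.0729), TMEM151B (adjusted p = 0.159), LCE3D (adjusted p = 0.289), CSF3 (adjusted p = 0.321), CCL20 (adjusted p = 0.9999) and SERPINB4 (adjusted p = 0.9999). DESeq2 did not call it for CCL20 (adjusted p = 0.17). It gave no adjusted p, and so no call, for SAA1, SAA2, CXCL6, SERPINB4, TMEM151B and TTC9.

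Against day 4 the difference changed for 11 of the named genes (adjusted p from 0.0114 to 0.0474), with -5.06 for CXCL5, -2.41 for CST4, -2.04 for IRAK3, -1.75 for LRRC15, -1.54 for SOD2, -1.23 for SLC11A2, -1.07 for SLC25A37, 1.01 for LMO7, 1.10 for LYPD1, 1.32 for XRCC4 and 1.79 for LIN7A. Over all genes tested, 0.0503% had a more negative and 0.0287% a more positive difference than at day 4. All 11 named genes kept their sign when 1 library was left out, and 0 passed in every such fit. No sample could be tested for standing apart within a group, since groups of 2 are too small for that.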

How the results depend on the processing

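No gene called at day 10 changed sign under any alternative. The counts of 675 lower and 608 higher became 165 and 107 with a replicate block within genotype, 64 and 9 from the 4 libraries of day 10 alone, and 232 and 161 past 2-fold. Leaving out 1 library gave 64 to 1895 lower and 51 to 1626 higher. The other settings stayed within 1.5 times, edgeR with 712 and 586 and DESeq2 with 853 and 808. Same-numbered shIL1R and shScr libraries of day 10 did not deviate together (correlation -0.098). Within shIL1R the same numbers correlated at 0.23 between days 0 and 4, 0.20 between days 4 and 10 and 0.053 between days 0 and 10, and within shScr at -0.045, -0.10 and 0.13. Not every pair was over 0.1, and the main fit treats the libraries as sharing only a number. The 0.23 and 0.20 within shIL1R mean that this choice is not settled. Across genotypes and days, shIL1R day 10 and shScr day 4 correlated at 0.185, and the other such pairs at -0.096 to 0.062. A value of this size is thus not limited to pairs within shIL1R. Whether same-numbered shIL1R libraries share an origin is not labelled and was not tested. The counts depend on the choice: a replicate block over all groups gave 665 and 602, and the block within genotype 165 and 107. For day 4, with 33 lower and 6 higher, no filter on low values gave 9 and 0 and DESeq2 269 and 207, and 1 library left out gave 1 to 421 and 0 to 320. For day 0, with 5 and 4, a pseudocount of 0.5 gave 3 lower, DESeq2 gave 40 and 98, and 1 library left out 1 to 23 and 0 to 39. For the change since day 0, with 214 and 122, no filter gave 73 higher, DESeq2 451 and 351, and 1 library left out 31 to 1139 and 11 to 984. For the change since day 4, with 7 and 4, a pseudocount of 5 gave 16 lower, DESeq2 70 and 79, and 1 library left out 0 to 673 and 0 to 736. The cause of these shifts was not tested. Of the 152 named genes called, 114 were lost without shScr replicate 2 of day 10, 63 without shIL1R replicate 2, 114 from day 10 alone, 86 with the block within genotype and 23 with no filter. Of the named genes that limma did not call, 33 passed in at least 1 alternative, so a missing call is not a stable negative. Both edgeR and DESeq2 called IL1RN, CDKN2B, LAPTM5 and ACTG2 (adjusted p from 0.00963 to 0.0494). DESeq2 and not edgeR called MMP1 (adjusted p = 0.0187), DUSP6 (adjusted p = 0.0305) and FTH1 (adjusted p = 0.0492). 22 values of uncalled genes changed sign. Without 1 library these ran from -0.27 to 2.12 for CCL2, -0.48 to 0.070 for CD68, -0.96 to 0.012 for CEBPB, -0.48 to 0.16 for CLCF1, -0.013 to 1.27 for COL1A1, -0.28 to 0.020 for CSF1, -0.72 to 3.0 for CXCL12, -1.56 to 0.35 for GDF15, -0.0080 to 0.11 for GLB1, -0.31 to 0.13 for IL1RAP, -0.44 to 1.31 for LMNB1, -0.041 to 1.84 for MKI67, -0.21 to 0.40 for MYD88, -0.16 to 0.15 for PELI2, -0.17 to 0.078 for RELA and -0.49 to 0.091 for TAB2. With quantile normalization the value was 0.027 for RELA. With the block within genotype the value was 0.083 for CLCF1 and 0.0025 for RELA. At low depth, the fold change of a gene with 3 reads or fewer in a group depends on the added 1.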
